A study of Mus musculus with 6 samples.

Results

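The mitochondrial carriers of the SLC25 family were followed through brown and white adipogenesis. Members were taken by their symbol alone, as every entry of the deposited expression table named *Slc25a* followed by a number, which gave 44 of 34465 gene symbols. Of these, 38 reached 1 FPKM (a fragment count scaled by exon length and by the number of mapped fragments) in at least 1 library and were tested together with all 14413 genes that did so, and 28 reached 10 FPKM. Total RNA had been sequenced from primary mouse preadipocytes cultured to confluence (day 0) and from cells on days 4 and 6 after induction. BAT cells came from the interscapular brown depot and WAT cells from the inguinal white depot of BL6 mice aged 3 weeks, with no genetic change in either, and the labels call them brown and white pre-adipocytes on day 0 and brown and white adipocytes on days 4 and 6. Cells of both depots were induced with insulin, dexamethasone, IBMX and rosiglitazone in serum-containing medium and then kept in medium with serum only, so that the rosiglitazone, which activates PPARγ, was given to white cells too. Each cell type and day gave 1 library (6 in total), without replicates. The preadipocytes were enriched from the stromal vascular fraction and can hold other stromal cells.

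Carriers of this family sit mostly in the inner mitochondrial membrane and move metabolites, nucleotides, cofactors and ions between cytosol and matrix. In adipocytes they export citrate for fatty acid synthesis, bring acylcarnitines in for oxidation, exchange ADP for ATP and supply phosphate to ATP synthase. The uncoupling protein of brown fat, UCP1, belongs to the same protein family but has a symbol outside the rule.

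The depth was estimated from how low FPKM values are spaced and was approximately 9.17 M fragments for WAT on day 0 and between 17.46 and 21.77 M for the other libraries, so values of WAT on day 0 carry the most counting error. The labels were checked against marker genes. The summed level of 7 adipocyte markers was 1187 FPKM (BAT) and 1990 FPKM (WAT) on day 0 and at least 26590 FPKM later. The 7 brown markers summed to 45.6, 316 and 138 FPKM in BAT (days 0, 4 and 6), against 8.95, 41.0 and 18.2 FPKM in WAT. All 7 were higher in BAT than in WAT on days 4 and 6, but *Cidea* alone held 284 and 115 FPKM of those BAT sums. In BAT, *Zic1* (14.5, 3.27 and 2.39 FPKM) and *Lhx8* (23.4, 4.13 and 4.12 FPKM) were lower after day 0. There *Ucp1*, *Cidea*, *Ebf2* and *Dio2* were higher on both later days, and *Prdm16* was higher on day 6 only. *Ucp1* itself reached only 9.92 FPKM (BAT, day 4). On day 0 *Ucp1* and *Cidea* were listed at 0 in BAT and at 1.49 and 2.43 FPKM in WAT. The 6 preadipocyte markers summed to 5150, 427 and 537 FPKM in BAT and to 2556, 845 and 1159 FPKM in WAT. Macrophage markers (8 measured) summed to 25.8, 56.6 and 79.9 FPKM in BAT and to 97.3, 149 and 300.2 FPKM in WAT, 3 endothelial markers to between 1.48 and 7.39 FPKM, and 4 muscle markers to 0 in every library except WAT on day 0 (1.10 FPKM). The macrophage sum was higher in WAT on each day and higher on days 4 and 6 than on day 0 in each cell type, and the preadipocyte sum was lower on days 4 and 6 than on day 0 and, on those days, higher in WAT. *Lyz2* held much of the macrophage sum (16.7 FPKM in BAT on day 0 and 193 FPKM in WAT on day 6). *Col1a1* led the preadipocyte sum (4004 FPKM, BAT day 0) and *Fabp4* the adipocyte sum (41438.5 FPKM, BAT day 4). Not every marker followed its sum. In BAT *Cd14* (5.53, 1.35 and 2.87 FPKM) and *Csf1r* (1.32, 1.23 and 0.670 FPKM) were lower after day 0. *Pdgfra* in WAT stood at 27.6 FPKM on day 0 and 28.6 FPKM on day 6. The part of these cells in the results below was not tested. In bulk RNA, fewer cells of a type and less RNA per cell cannot be told apart.

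The promoters of 34 of the 44 members could be matched by symbol in RefSeq (GRCm38.p6), in 43 windows that run from 250 bases before to 50 bases after a transcription start. A median of 15 CpG dinucleotides stood in the members' windows, against 7 in all 32851 windows of this kind, and 4 of 43 (9.30%) held at most 5 CpG, against 43.6% of all. Besides *Slc25a34*, those 4 windows belong to *Slc25a18* and *Slc25a21*, which were not tested. The set of all windows was not limited to expressed genes, and some members have more than 1 window, so the sets are not matched. *Slc25a34*, the member with the largest rise during differentiation, had the window with the fewest CpG, a single one, while *Slc25a10*, which also rose in every setting tried, had 15. Both windows are shown because they differ in this way, at chr4:141623785-141624084 (minus strand) for *Slc25a34* and at chr11:120491587-120491886 (plus strand) for *Slc25a10*, each 5′ to 3′ with CpG dinucleotides in capitals.
Slc25a34: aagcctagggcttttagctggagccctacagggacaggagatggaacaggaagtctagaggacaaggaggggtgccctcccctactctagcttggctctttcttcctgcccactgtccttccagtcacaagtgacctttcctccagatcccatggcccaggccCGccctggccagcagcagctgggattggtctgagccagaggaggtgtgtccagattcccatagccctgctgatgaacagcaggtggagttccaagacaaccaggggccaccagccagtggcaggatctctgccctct
Slc25a10: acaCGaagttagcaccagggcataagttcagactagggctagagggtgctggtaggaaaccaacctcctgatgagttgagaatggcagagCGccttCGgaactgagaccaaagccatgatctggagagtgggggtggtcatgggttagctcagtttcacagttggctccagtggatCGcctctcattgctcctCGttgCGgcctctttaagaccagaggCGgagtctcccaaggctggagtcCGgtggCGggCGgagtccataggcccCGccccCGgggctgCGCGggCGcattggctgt
Both strands of all windows were searched for short motifs written as plain letters. The CCAAT box (CCAAT) stood in 21 of 43 member windows (48.8%) and in 37.4% of all windows, and TATAAA in 2 (4.65%) against 13.6%. None of the 43 held the PPAR direct repeat, the ERR site TCAAGGTCA or the NRF1 palindrome, each searched without mismatch, which 0.0396%, 0.423% and 0.971% of all windows hold, and 1 (*Slc25a18*) held TCACNCCAC (1.24% of all). The PPAR and ERR motifs share the letters AGGTCA. These matches describe the letters of short windows only.

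The carriers took a larger share of the transcriptome after induction in both cell types. The summed level of the 44 members was 1059, 3456 and 2802 FPKM in BAT (days 0, 4 and 6), which is 0.201%, 0.467% and 0.334% of the FPKM sum of each library. In WAT the sum was 1241, 3212 and 2564 FPKM, or 0.147%, 0.400% and 0.319%. Transcripts of the mitochondrial genome took between 2.84% and 15.3% of the libraries, and without them the members' share was 0.207%, 0.494% and 0.395% in BAT and 0.154%, 0.451% and 0.371% in WAT. The sum was highest on day 4 and lower on day 6 in each cell type. A small number of carriers made up much of it. The phosphate carrier *Slc25a3* and the ADP/ATP carriers *Slc25a4* and *Slc25a5* together held 55.4% and 61.4% of the members' sum of BAT and WAT preadipocytes and between 43.8% and 49.7% later. The number of members at or above 100 FPKM was 3, 9 and 8 in BAT and 4, 7 and 6 in WAT.

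**Figure D1:**
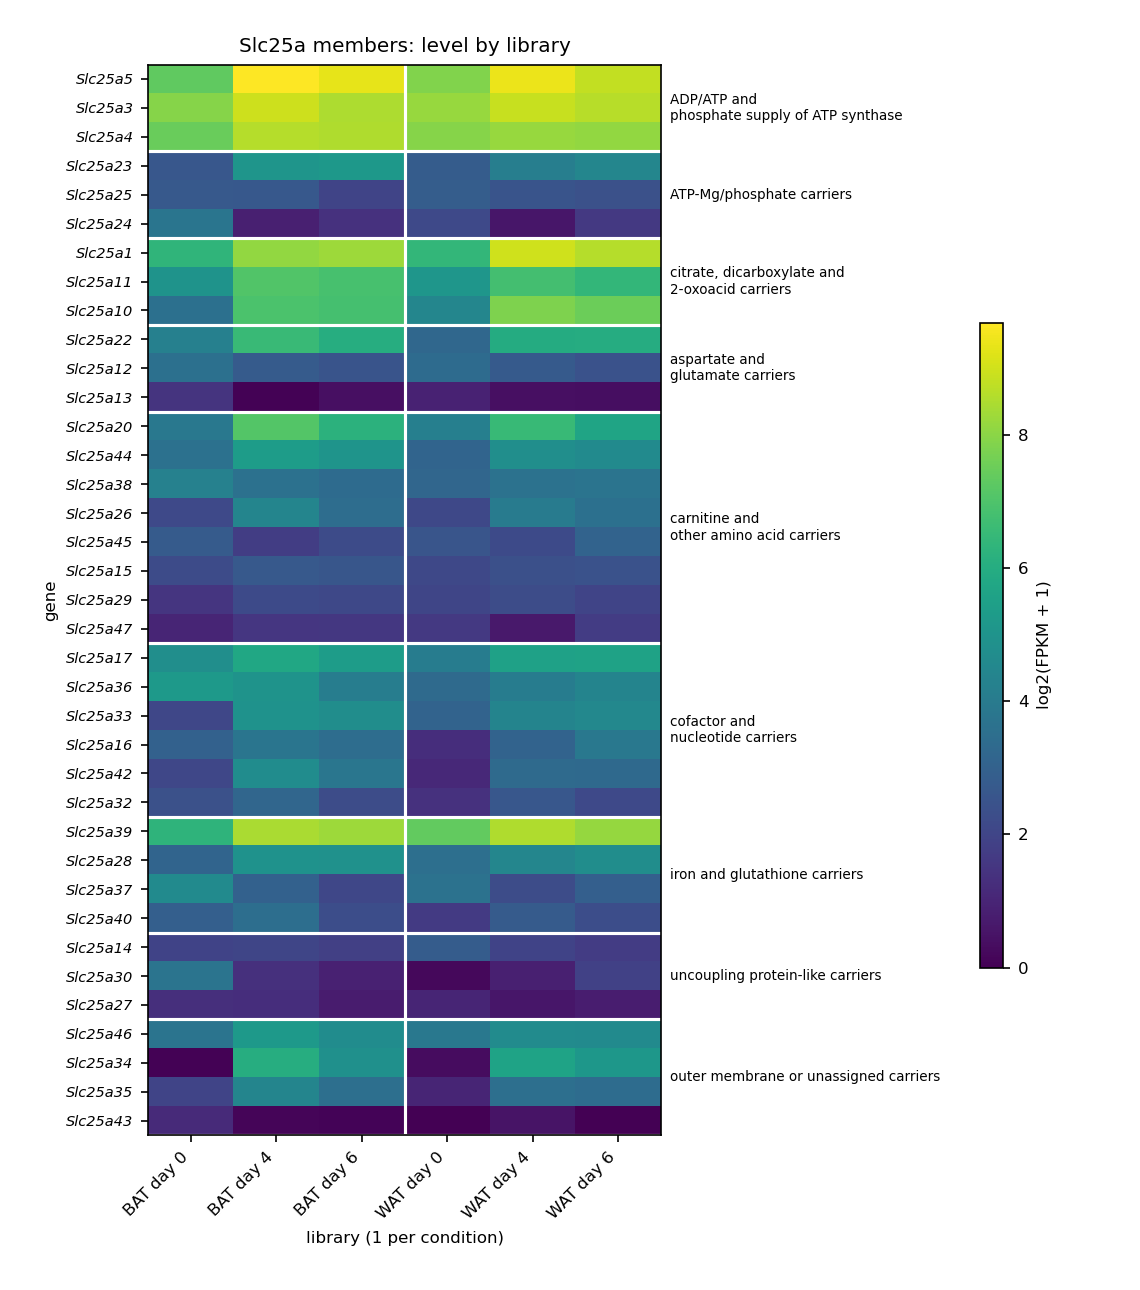
Level of 37 of the 38 tested members (rows, grouped by transport role) in each of the 6 libraries (columns, 1 per condition), coloured by log2(FPKM + 1). *Slc25a3*, *Slc25a4*, *Slc25a5*, *Slc25a1* and *Slc25a39* are the brightest rows, and *Slc25a34* goes from the dark end in both day 0 libraries (0.0467 and 0.263 FPKM) to 27.9 FPKM or more.

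Values were compared as log2(FPKM + 1), which understates what happens to low genes. The differentiated cells of days 4 and 6 were set against day 0 with limma over all 14413 genes, in an additive fit of depot and day, so that BAT and WAT stand in for replicates of a day. Of the 38 members, 18 rose and 1 fell at a Benjamini-Hochberg adjusted p under 0.05, while 11.3% of all genes tested rose and 10.6% fell. The members' median difference was 0.85 on the log2 scale, against -0.13 over all genes. In 22 members (57.9%) every library of days 4 and 6 lay above both libraries of day 0, and in 5 (13.2%) every one lay below, against 20.8% and 24.5% of all genes tested. These counts are on the deposited scale. As TPM, BAT on day 6 lay below BAT on day 0 in *Slc25a3*, *Slc25a15*, *Slc25a16* and *Slc25a17* of the 22. With the length trend removed, BAT on day 4 lay above BAT on day 0 in *Slc25a12* and *Slc25a25* of the 5. Another of the 5, *Slc25a13*, passed the filter through BAT on day 0 alone, so its place there is a description only. The count of rises was lowest without a day 4 library, at 3 without BAT day 4 and 5 without WAT day 4. Over all genes the share that rose was then 2.05% and 2.21%, while the members' median difference was 0.77 and 0.95 and 17 and 18 members were higher at an unadjusted p under 0.05, against 19 with all libraries. The count was 14 and 13 without BAT and WAT day 6 and 17 and 18 without BAT and WAT day 0. Without either day 6 library the calls of *Slc25a5*, *Slc25a17*, *Slc25a28*, *Slc25a39* and *Slc25a46* were lost, and the other rises were kept. With no filter, the calls of *Slc25a5*, *Slc25a17*, *Slc25a24*, *Slc25a33*, *Slc25a39* and *Slc25a46* were lost. *Slc25a10* and *Slc25a34* were called in every setting and with each library left out. However, *Slc25a34* passed the filter only through libraries of days 4 and 6, so its calls and its place among the 18 and the 22 are a description only.

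**Figure D2:**
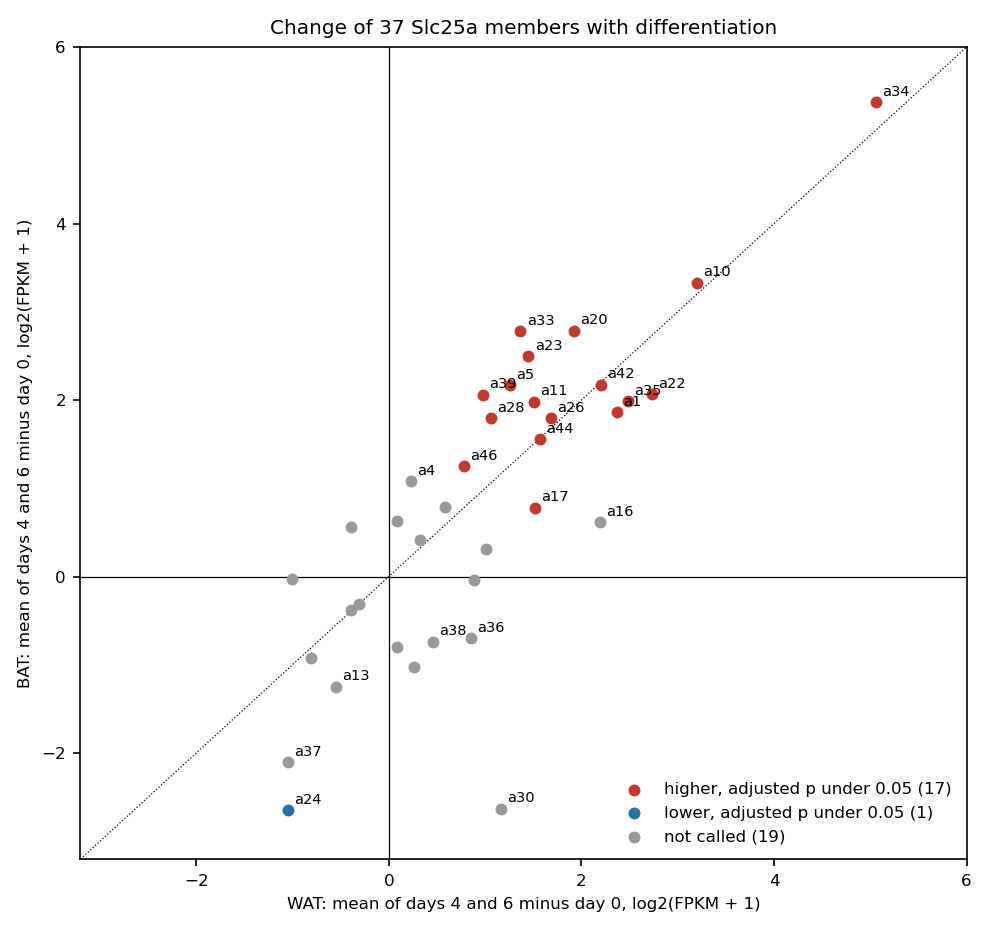
Difference of log2(FPKM + 1) between the mean of days 4 and 6 and day 0 in WAT (x axis) and in BAT (y axis) for 37 of the 38 tested members. Red points (17) rose and the blue point (1) fell at an adjusted p under 0.05, grey points (19) were not called, a34 stands for *Slc25a34* and so on, and the dotted line marks equal change.

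Carriers that feed ATP synthase were the 3 highest members by mean FPKM over the libraries, and 1 of them rose. In WAT, *Slc25a1* and *Slc25a39* stood above *Slc25a4* on days 4 and 6, and *Slc25a1* above *Slc25a3* on day 4. *Slc25a5*, the ADP/ATP carrier ANT2 of many dividing tissues, stood at 161, 830 and 642 FPKM in BAT (days 0, 4 and 6) and at 229, 676 and 444 FPKM in WAT. It was the highest member in all 4 libraries of differentiated cells and rose by 1.71 ± 0.37 (log2 difference ± SE, limma adjusted p = 0.0226). *Slc25a4*, the ADP/ATP carrier ANT1 best known from heart and muscle, stood at 180, 388 and 376 FPKM in BAT and at 241, 291 and 276 FPKM in WAT. All differentiated libraries lay above both of day 0, yet its difference of 0.66 ± 0.34 did not pass (limma adjusted p = 0.213). *Slc25a3*, which carries phosphate into the matrix, stood at 245, 500.0 and 359 FPKM in BAT and at 292, 475 and 403 FPKM in WAT, again with no overlap between day 0 and later days, and its difference of 0.68 ± 0.31 did not pass either (limma adjusted p = 0.172). As TPM, its BAT level on day 6 lay below that of day 0 (-0.12 on the log2 scale). The ratio of *Slc25a5* to *Slc25a4* in FPKM was 0.897 (BAT) and 0.948 (WAT) on day 0 and between 1.61 and 2.33 in the differentiated cells. The germline carrier *Slc25a31* was not tested, with at most 0.104 FPKM.

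All 3 tested carriers of citrate, dicarboxylates and 2-oxoglutarate rose. *Slc25a10*, which exchanges malate and succinate for phosphate, stood at 10.9, 124 and 114 FPKM in BAT and at 21.2, 225 and 182 FPKM in WAT. The lowest differentiated library lay several-fold above the higher preadipocyte library, and the rise was 3.26 ± 0.24 (limma adjusted p = 0.0012). *Slc25a1*, the citrate carrier that supplies cytosolic acetyl-CoA, stood at 80.0, 278 and 310 FPKM in BAT and at 85.6, 510 and 391 FPKM in WAT. Its preadipocyte levels were close to each other and the white adipocytes were the higher on both later days, with a rise over both cell types of 2.12 ± 0.31 (limma adjusted p = 0.0066). *Slc25a11*, the 2-oxoglutarate/malate carrier of the malate-aspartate shuttle, went from 30.9 to 134 and 116 FPKM in BAT and from 32.9 to 109 and 83.6 FPKM in WAT, a rise of 1.75 ± 0.26 (limma adjusted p = 0.0068). The 2-oxoadipate carrier *Slc25a21* stayed at or below 0.630 FPKM and was not tested.

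Among the carriers of aspartate and glutamate, the 3 tested members did not move together. *Slc25a22*, a glutamate carrier, stood at 17.9, 94.3 and 64.4 FPKM in BAT and at 8.47, 61.3 and 62.4 FPKM in WAT and rose by 2.40 ± 0.29 (limma adjusted p = 0.0037). *Slc25a12*, the aspartate/glutamate carrier aralar, stood at 10.9, 5.95 and 4.67 FPKM in BAT and at 9.47, 5.63 and 4.40 FPKM in WAT. On the deposited scale every differentiated library lay below both preadipocyte libraries. The difference of -0.86 ± 0.28 missed the threshold (limma adjusted p = 0.0755). Removing the trend with transcript length put the BAT differences of *Slc25a12* from day 0 at 0.021 (day 4) and -0.087 (day 6). The fall in BAT was thus not kept in that setting, while WAT stayed below its day 0 on both later days. *Slc25a13*, the related carrier citrin, was at 1.78 and 0.903 FPKM on day 0 and between 0.0513 and 0.316 FPKM later, a difference of -0.90 ± 0.34 (limma adjusted p = 0.113). It reached 1 FPKM only in BAT on day 0, the library that let it pass the filter, so this difference is a description only. The ratio of *Slc25a22* to *Slc25a12* was 1.64 (BAT) and 0.895 (WAT) on day 0 and between 10.9 and 15.9 afterwards.

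In the group of carnitine and other amino acid carriers, 3 of 8 tested members rose. *Slc25a20*, the carnitine/acylcarnitine carrier of fatty acid oxidation, stood at 13.8, 138 and 73.9 FPKM in BAT and at 17.1, 92.2 and 49.5 FPKM in WAT. Its rise was 2.36 ± 0.29 (limma adjusted p = 0.0040), and in both cell types day 6 lay below day 4. *Slc25a26*, which brings S-adenosylmethionine into mitochondria, stood at 3.44, 20.6 and 9.99 FPKM in BAT and at 3.33, 15.2 and 10.9 FPKM in WAT and rose by 1.74 ± 0.28 (limma adjusted p = 0.0091). *Slc25a44*, a carrier of branched-chain amino acids described in brown fat, stood at 11.3, 39.9 and 31.1 FPKM in BAT and at 7.84, 26.7 and 23.8 FPKM in WAT and rose by 1.56 ± 0.24 (limma adjusted p = 0.0079). The other 5, *Slc25a15* (ornithine), *Slc25a29* (basic amino acids), *Slc25a38* (glycine), *Slc25a45* and *Slc25a47*, differed by between -0.36 and 0.37 and did not pass. *Slc25a2* and *Slc25a48* stayed under 1 FPKM.

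Cofactor and nucleotide carriers gave 4 rises among 7 tested members. *Slc25a42*, a coenzyme A carrier, stood at 3.24, 24.96 and 13.1 FPKM in BAT and at 1.18, 9.14 and 8.90 FPKM in WAT and rose by 2.19 ± 0.31 (limma adjusted p = 0.0060). *Slc25a33*, a pyrimidine nucleotide carrier, stood at 3.22, 30.1 and 26.0 FPKM in BAT and at 7.47, 19.97 and 21.8 FPKM in WAT and rose by 2.07 ± 0.38 (limma adjusted p = 0.0132). *Slc25a17*, a carrier of coenzyme A and other nucleotides in peroxisomes, stood at 26.4, 53.3 and 39.7 FPKM in BAT and at 15.6, 45.2 and 47.7 FPKM in WAT. It rose by 1.15 ± 0.29 (limma adjusted p = 0.0362), a call that was lost on leaving out any single library except BAT on day 0 and also as TPM, with no filter and with no variance trend. *Slc25a36*, the pyrimidine nucleotide carrier related to *Slc25a33*, differed by 0.08 ± 0.44, *Slc25a32* (folate and FAD) by 0.66 ± 0.34 and *Slc25a16* by 1.41 ± 0.46, and none of these passed (limma adjusted p = 0.918, 0.210 and 0.0765).

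Of the iron and glutathione carriers, 2 of 4 rose, and the mitoferrins differed in course. *Slc25a39*, which supports glutathione import, stood at 78.6, 353 and 311 FPKM in BAT and at 164, 368 and 285 FPKM in WAT and rose by 1.52 ± 0.35 (limma adjusted p = 0.0288). That call was lost under median-ratio scaling, with no filter, and on leaving out any library of day 4 or day 6. *Slc25a28*, mitoferrin 2, stood at 7.72, 29.6 and 28.9 FPKM in BAT and at 10.6, 20.7 and 26.1 FPKM in WAT and rose by 1.43 ± 0.29 (limma adjusted p = 0.0181). That call was lost on leaving out any library except WAT on day 0. *Slc25a37*, mitoferrin 1, which serves iron uptake in red cell precursors, stood at 23.9, 7.02 and 3.18 FPKM in BAT and at 11.5, 3.82 and 6.58 FPKM in WAT. Each differentiated library lay below both preadipocyte libraries, and the difference of -1.58 ± 0.44 was just above the threshold (limma adjusted p = 0.0503). *Slc25a37* was called as a fall with a pseudocount of 0.1, under median-ratio scaling, with summed entries and without WAT on day 6. The same held with the length trend removed, with protein-coding genes only and at a mean of at least 5 FPKM. The ratio of *Slc25a28* to *Slc25a37* was 0.323 (BAT) and 0.925 (WAT) on day 0 and between 3.96 and 9.10 later. *Slc25a40*, the paralogue of *Slc25a39*, stayed between 2.15 and 10.5 FPKM, with a difference of 0.43 ± 0.37 (limma adjusted p = 0.436).

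The ATP-Mg/phosphate carriers, which adjust the adenine nucleotide pool of the matrix, gave 1 rise and the only fall called in the main setting. *Slc25a23* stood at 5.15, 32.2 and 35.1 FPKM in BAT and at 6.17, 16.6 and 20.8 FPKM in WAT and rose by 1.97 ± 0.32 (limma adjusted p = 0.0094). *Slc25a24* (mm9, chr3:108926067-108971375, plus strand) stood at 12.5, 0.788 and 1.60 FPKM in BAT and at 3.42, 0.498 and 2.06 FPKM in WAT and fell by 1.85 on the log2 scale (SE 0.45, limma adjusted p = 0.0337). Both preadipocyte libraries lay above all differentiated ones, and in BAT the day 0 level was 15.9 times that of day 4 (95% exact interval on the estimated fragments 11.95 to 21.6, counting error only). The call was lost on leaving out BAT on day 0, 4 or 6 or WAT on day 4, and also with a pseudocount of 5, with no filter and as TPM. At a mean of at least 5 FPKM *Slc25a24* was not fitted, and the 1 fall in that setting was *Slc25a37*. On FPKM the ratio of *Slc25a23* to *Slc25a24* was 0.411 (BAT) and 1.80 (WAT) on day 0 and between 10.1 and 40.9 in differentiated cells. *Slc25a25* differed by -0.39 ± 0.31 and *Slc25a41* stayed under 1 FPKM.

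**Figure D3:**
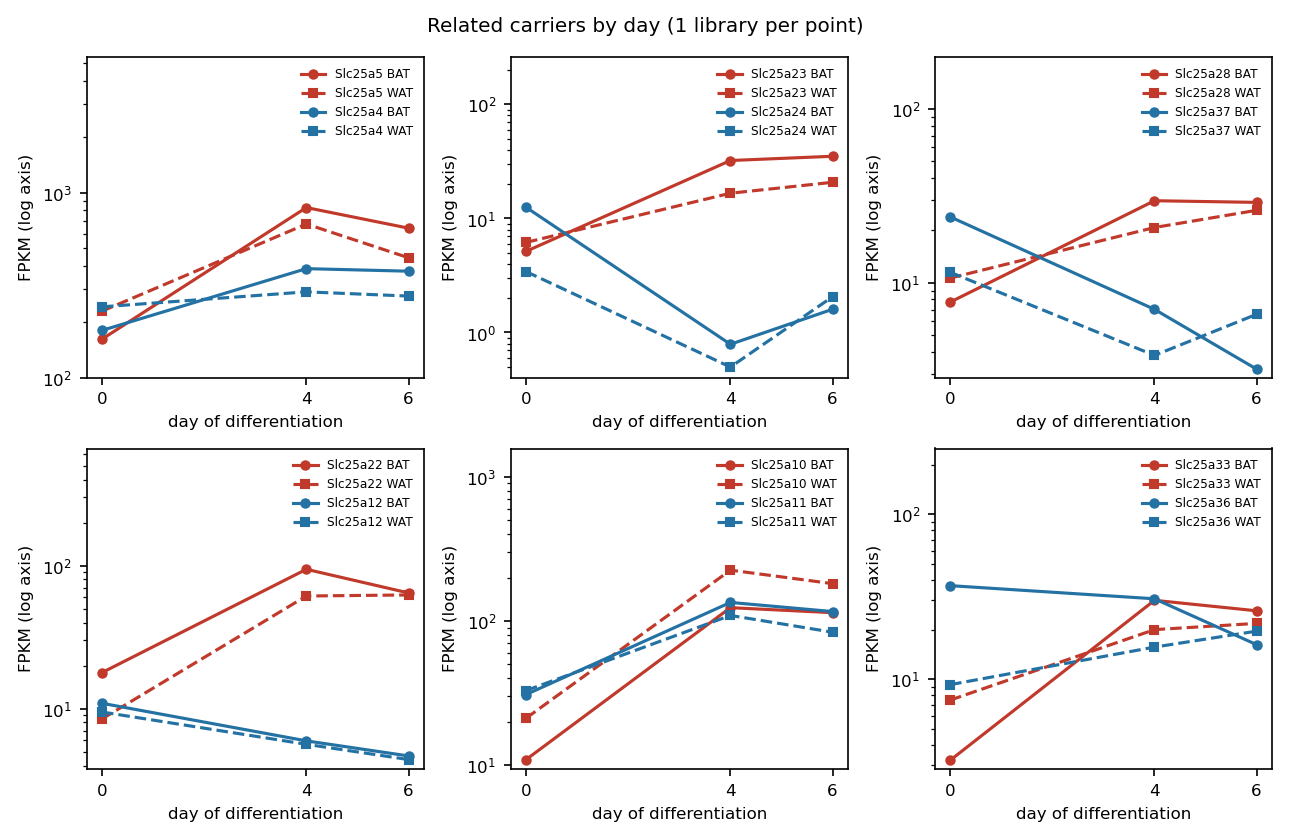
Level in FPKM (y axis, log scale) by day of differentiation (x axis) for 6 pairs of related carriers, with BAT as solid lines with circles and WAT as dashed lines with squares, 1 library per point. The pairs were chosen after their values were seen; *Slc25a23* and *Slc25a24* cross between day 0 and day 4 in BAT, as do *Slc25a28* and *Slc25a37*.

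Carriers without an established substrate, with the outer membrane protein *Slc25a46*, gave 3 rises of 4. *Slc25a34* (mm9, chr4:141174739-141179736, minus strand) stood at 0.0467, 64.7 and 27.9 FPKM in BAT and at 0.263, 48.6 and 34.5 FPKM in WAT, the largest rise of all members at 5.22 ± 0.29 (limma adjusted p = 0.0011). It reached 1 FPKM only in libraries of days 4 and 6, which let it pass the filter, so this difference is a description only. The preadipocyte values rest on an estimated 2 fragments in BAT and 6 in WAT, and the ratio of day 4 to day 0 was 1384 in BAT (95% exact interval 383 to 11430) and 185 in WAT (84.9 to 505), for counting error only. It is the gene whose promoter window, printed above, held a single CpG. *Slc25a35*, its close relative, stood at 2.98, 20.3 and 10.7 FPKM in BAT and at 0.992, 10.5 and 9.76 FPKM in WAT and rose by 2.24 ± 0.32 (limma adjusted p = 0.0062), with 1882 bases of *Rangrf* overlapping it on the opposite strand. Opposite-strand overlaps of other members include 3433 bases (*Slc25a23*), 3285 (*Slc25a36*), 1090 (*Slc25a33*) and 1018 (*Slc25a46*). Whether the counting used the strand is not given in the sources used here. *Slc25a46*, which acts in mitochondrial fission and fusion, stood at 12.3, 36.7 and 25.3 FPKM in BAT and at 13.6, 24.5 and 23.7 FPKM in WAT and rose by 1.01 ± 0.27 (limma adjusted p = 0.0425), a call that was lost with a pseudocount of 5, as TPM, with no filter and with no variance trend, and on leaving out any library except WAT on day 0 (log2 differences of 0.78 to 1.16). *Slc25a43*, the neighbour of *Slc25a5* on the X chromosome, reached 1.202 FPKM in BAT on day 0 and was listed at 0 in WAT on days 0 and 6.

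None of the 3 tested carriers that resemble uncoupling proteins rose or fell. *Slc25a14*, expressed mainly in brain, stood between 2.27 and 6.14 FPKM and *Slc25a27* between 0.517 and 1.48 FPKM. *Slc25a30*, known from kidney, had opposite courses in BAT and WAT and is described below.

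Between day 4 and day 6 most carriers came down in level, without a call. Day 6 lay below day 4 in both cell types for 21 of 38 members (55.3%), against 19.3% of all genes, and above it for 4 (10.5%: *Slc25a23*, *Slc25a24*, *Slc25a45* and *Slc25a47*), against 36.1%. limma called no member and no gene (0.0% in each direction) between these days, with 0 members higher and 2 (5.26%) lower, *Slc25a20* (-0.89 ± 0.33) and *Slc25a34* (-0.83 ± 0.33), at an unadjusted p under 0.05. Of all genes, 2.52% were higher and 1.37% lower at that level.

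By the 2-fold rule between single libraries, which has no test, 19 members were higher and 5 lower in BAT on day 4 than on day 0, where 17.1% and 23.2% of all genes were. On day 6 the counts in BAT were 17 and 7 (16.1% and 25.3% of all genes). Among the lower members in BAT, *Slc25a13* on both days and *Slc25a43* on day 6 passed the filter through BAT on day 0 alone. In WAT the counts were 19 and 2 on day 4 (15% and 19.0% of all genes) and 18 and 1 on day 6 (18.5% and 14%). The median member difference was 1.01 and 0.58 (BAT, days 4 and 6) and 1.03 and 0.88 (WAT), against -0.16, -0.21, -0.09 and 0.10 over all genes. Expressed as TPM, the median of all genes in BAT moved to -0.60 on day 4 and -0.80 on day 6, and that of the members to 0.53 and 0.17, so the members stayed above the median of all genes under this scaling. Differences of BAT from its day 0 tracked transcript length over protein-coding genes, with Spearman coefficients of -0.339 (day 4) and -0.430 (day 6). On day 6 the median was 0.63 in the shortest 10% and -1.10 in the longest 10% of genes. In WAT the coefficients were -0.049 and -0.033.

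No carrier passed the test between BAT and WAT. Over all 3 days limma called none of the 14413 genes in either direction (0.0%). At an unadjusted p under 0.05, 299 genes were higher and 516 lower in BAT, among them 1 member each way, *Slc25a42* (0.94 ± 0.29) and *Slc25a10* (-0.81 ± 0.23), both with a limma adjusted p of 0.674. Within days 4 and 6, in a model where these days stand in for replicates, again no gene was called (0.0%). Of the members, 2 were higher in BAT at an unadjusted p under 0.05, among them *Slc25a23* (0.82 ± 0.21), and 2 lower, *Slc25a10* (-0.76 ± 0.19) and *Slc25a1* (-0.60 ± 0.22), and the smallest limma adjusted p was 0.761. Among all genes, 298 were higher and 451 lower at that level.

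By sign alone, 18 of 38 members (47.4%) lay higher in BAT than in WAT on both day 4 and day 6, against 26.8% of all genes, and 4 (10.5%) lay lower, against 25.5%. The count of 18 was 17 under median-ratio scaling, as TPM and with the trend in transcript length removed. The 4 lower members became 6 under median-ratio scaling and with the length trend removed, with *Slc25a3* and *Slc25a25* added, and as TPM *Slc25a13* took the place of *Slc25a38*. On the deposited scale they were *Slc25a1*, *Slc25a10*, *Slc25a38* and *Slc25a45*. Of these, *Slc25a10* lay below WAT on all 3 days by 0.89, 0.86 and 0.66 on the log2 scale, and in every scaling tried, by as little as 0.26 on day 0 as TPM. *Slc25a1* lay below by 0.10, 0.87 and 0.34, a sign that turned on day 0 as TPM (0.58) and with the length trend removed (0.05). The summed macrophage markers were also higher in WAT on each day (97.3, 149 and 300.2 FPKM, against 25.8, 56.6 and 79.9 FPKM in BAT). On all 3 days 8 members (21.1%) were higher in BAT, namely *Slc25a12*, *Slc25a15*, *Slc25a22*, *Slc25a32*, *Slc25a35*, *Slc25a40*, *Slc25a42* and *Slc25a44*, against 16.6% of all genes, and 2 (5.26%), *Slc25a1* and *Slc25a10*, were lower, against 14.4%. These counts moved with the scaling, to 14 higher and 1 lower as TPM and to 6 higher and 5 lower under median-ratio scaling. *Slc25a32*, *Slc25a35*, *Slc25a42* and *Slc25a44* were higher in BAT on all 3 days under both of these and with the length trend removed.

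The single library differences were widest between the preadipocytes, among the members as among all genes. On day 0, 8 of 38 members were at least 2-fold higher in BAT and 2 of 38 lower, against 20.7% and 13% of all genes. The members' share was thus near that of all genes on the higher side and below it on the lower side. *Slc25a30* was the furthest apart, with 12.4 FPKM in BAT and 0.143 FPKM in WAT, a ratio of 86.7 (95% exact interval 23.8 to 719) that rests on an estimated 321 and 2 fragments and covers counting error only. The others higher in BAT were *Slc25a36* (1.88 on the log2 scale), *Slc25a16* (1.72), *Slc25a24* (1.61), *Slc25a40* (1.28), *Slc25a43* (1.14), *Slc25a32* (1.04) and *Slc25a38* (1.02), and those lower were *Slc25a39* (-1.05) and *Slc25a33* (-1.004). *Slc25a43* reached 1 FPKM only in BAT on day 0, the library that let it pass the filter, so its difference there is a description only. Differences between these 2 libraries tracked the length of the transcript, with a Spearman coefficient of 0.517 that describes 12695 protein-coding genes, with a median of -0.91 in the shortest 10% and 1.01 in the longest 10% of genes. With this trend removed, *Slc25a30* stood at 3.69, *Slc25a36* at 1.37 and *Slc25a16* at 1.40, while *Slc25a32* (0.77), *Slc25a39* (-0.90) and *Slc25a33* (-0.95) no longer met the 2-fold rule. The median of all genes lay 0.21 higher in BAT on day 0, and 0.80 higher as TPM, where 15 members were at least 2-fold higher and 0 lower. On day 4 only *Slc25a42* was at least 2-fold higher in BAT (1.36) and none lower, against 3.51% and 3.08% of all genes. On day 6 no member met the rule in either direction (1.8% and 4.09% of all genes). The coefficient with transcript length between BAT and WAT was 0.263 on day 4 and -0.059 on day 6.

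**Figure D4:**
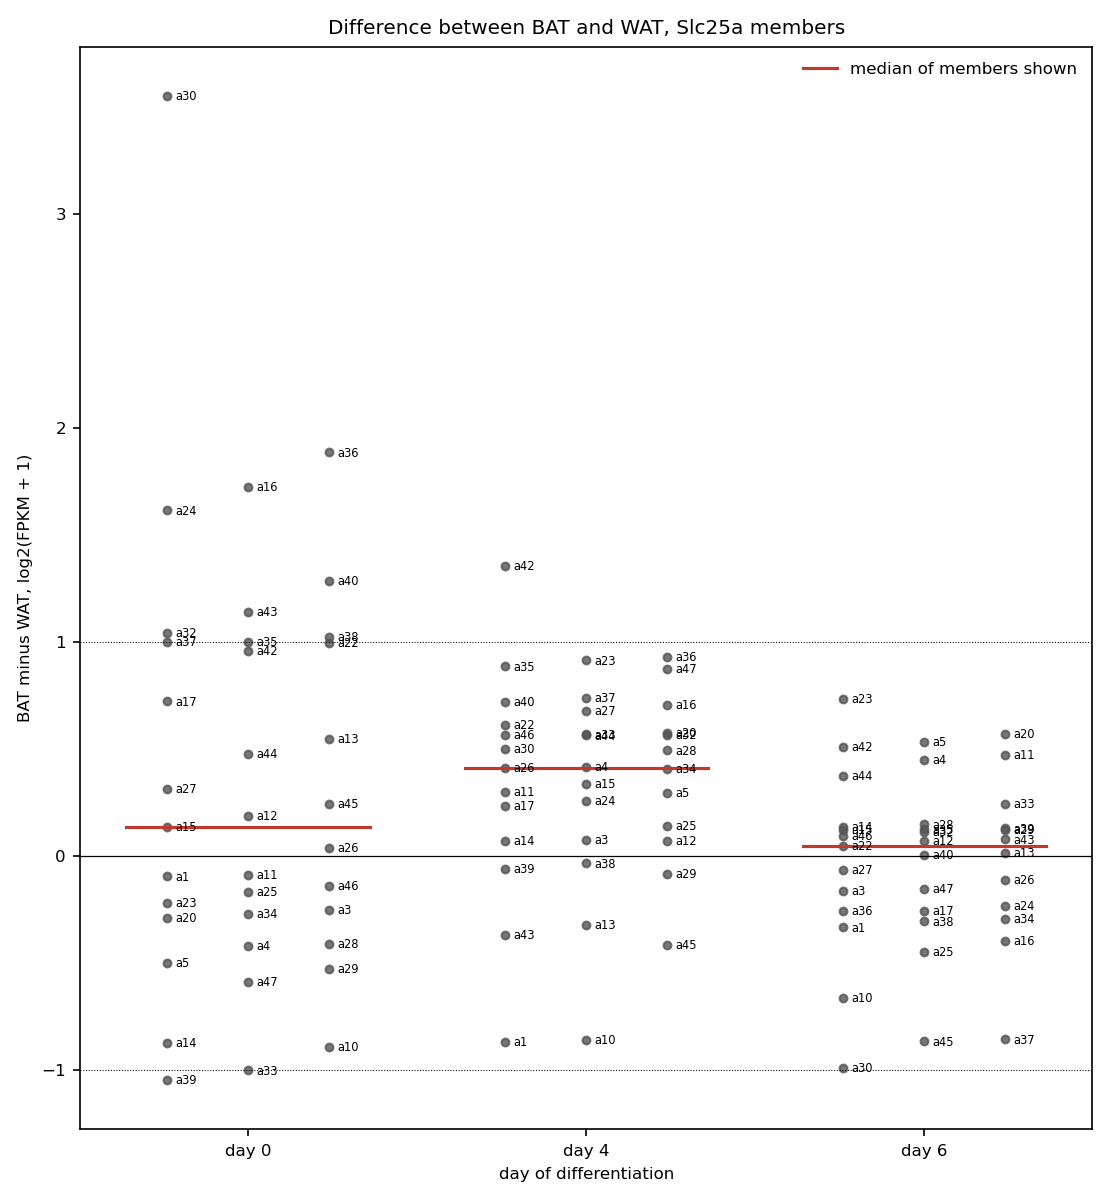
Difference of log2(FPKM + 1) between BAT and WAT (y axis) on days 0, 4 and 6 (x axis), with 1 point for each of 37 tested members, labels such as a30 for *Slc25a30*, dotted lines at the 2-fold rule and a red line at the median of the members shown. The points are widest apart on day 0, where *Slc25a30* stands at 3.55, and on day 6 all lie within the dotted lines.

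The change from day 0 was also compared between the cell types. limma called 0.208% of all genes with a change that was more positive in BAT and 0.0208% with one that was more negative, and no member. At an unadjusted p under 0.05, 4 members (10.5%) were more positive and 3 (7.89%) more negative, against 9.01% and 13.4% of all genes, so the members' shares were near or below those of all genes. With the trend in transcript length removed, 2 members (5.26%) were more positive and 4 (10.5%) more negative at that level, against 9.41% and 9.28% of all genes. *Slc25a30*, which stood at 12.4, 1.53 and 0.850 FPKM in BAT and at 0.143, 0.792 and 2.68 FPKM in WAT, had the largest difference in change, -3.80 ± 0.75 (limma adjusted p = 0.156). The BAT libraries of days 4 and 6 lay below their day 0 and the WAT libraries above theirs. *Slc25a33*, by contrast, had the larger difference from day 0 in BAT, by 1.41 ± 0.33 (limma adjusted p = 0.171). The others at an unadjusted p under 0.05, none of which passed adjustment, were *Slc25a39* (1.08 ± 0.38), *Slc25a23* (1.04 ± 0.36) and *Slc25a4* (0.85 ± 0.30) on the positive side and *Slc25a43* (-1.29 ± 0.37) and *Slc25a38* (-1.195 ± 0.34) on the negative side. *Slc25a43* passed the filter through BAT on day 0 alone, so its value is a description.

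Other genes of the same pathways were read from lists of their enzymes and transporters in the comparison of days 4 and 6 with day 0. Of 5 carrier proteins with other symbols, 3 rose and 0 fell, namely *Ucp2* (2.88), *Ucp3* (1.85) and *Mtch2* (1.65), while *Ucp1* (0.96, limma adjusted p = 0.438) and *Mtch1* (-0.75) did not pass. *Ucp1* had opposite courses, at 0, 9.92 and 3.65 FPKM in BAT and at 1.49, 0.477 and 0.175 FPKM in WAT. Its difference in change was 3.75 ± 0.83 (limma adjusted p = 0.162). Of 10 other mitochondrial transporters, 5 rose and 1 fell. The subunits of the pyruvate carrier, *Mpc1* (listed as *Brp44l*, 3.97) and *Mpc2* (listed as *Brp44*, 3.22), rose most, followed by the sideroflexins *Sfxn1* (2.36) and *Sfxn4* (2.05) and the outer membrane channel *Vdac1* (1.79), and *Sfxn3* fell by 2.94. Of 7 enzymes of the malate-aspartate shuttle and of citrate use, 4 rose and 0 fell: *Me1* (3.41), *Mdh1* (3.37), *Cs* (3.25) and *Mdh2* (2.15), beside *Got1* (0.57) and *Got2* (0.33), which did not pass. *Acly*, which splits the citrate that *Slc25a1* exports, was listed at 0 in BAT (days 4 and 6) and WAT (day 4) but at 277 FPKM in WAT on day 6, so its values were not read. Of the 4 carnitine shuttle enzymes, which work with *Slc25a20*, *Cpt1b* (3.80), *Crat* (3.03) and *Cpt2* (2.03) rose and *Cpt1a* fell by 2.14. None of these genes was called between BAT and WAT.

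*Slc25a18* (at most 0.171 FPKM), *Slc25a41* (0.207 FPKM), *Slc25a48* (0.0683 FPKM), *Slc25a31*, *Slc25a21* and *Slc25a2* (0.747 FPKM) make up the 6 members under 1 FPKM in every library. Carriers listed under older symbols fall outside the rule: *Mcart1* stood at 39.7, 73.8 and 51.6 FPKM in BAT and at 19.6, 44.3 and 47.9 FPKM in WAT, and *Mcart6* between 1.77 and 5.22 FPKM.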

How the data were processed

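Directional libraries were sequenced from both fragment ends. The authors mapped them to mm9 (TopHat2 2.0.11) and deposited gene levels from Cufflinks 2.1.1 in FPKM, with no further step given in the sources used here. Columns headed SUB (subcutaneous) were read as WAT because the inguinal depot is subcutaneous. The table has 37841 entries; of repeated symbols only the highest entry by mean was used, which left out 3376. Genes at or above 1 FPKM in at least 1 library were kept and transformed as log2(FPKM + 1). No counts were tested. In the depth estimate, 83.6% to 90.1% of low values came within 10% of whole fragments.

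limma 3.58.1 (R 4.3.3, variance trend, Benjamini-Hochberg, threshold 0.05) was fitted with terms for cell type and day (2 residual and 4.26 prior degrees of freedom) for the day and overall cell type comparisons, and with 4 groups (BAT day 0, WAT day 0, BAT days 4 and 6, WAT days 4 and 6; 2 residual and 2.04 prior) for the others. Residuals therefore hold noise and any response that differs between cell types or days, and p-values measure only that spread. Single libraries were compared by a 2-fold rule with no test. The limma step was tested on simulated data. Gene types, lengths and overlaps come from GENCODE M1 (mm9), which holds 97.9% of the gene IDs, and promoters from RefSeq.

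The members and lists were chosen with earlier results of these data known. Values in all libraries are given for members of at least 10 FPKM that passed a limma test or were among the 15 largest changes, the 8 largest BAT against WAT differences of one sign on days 4 and 6, or the 6 highest means; other members were named after their values were seen. Alternatives were no filter, pseudocounts of 0.1 and 5, a mean of at least 5 FPKM, median-ratio and TPM scaling, summed entries, no variance trend and each library left out. Removing a trend with transcript length (lowess, span 0.3) and protein-coding genes alone were added after seeing the data. Of the tested members, 1 is counted but its own values are not reported here. The methylation data were not analysed here. Tables were made in Python 3.11.15 with pandas 2.3.3, numpy 2.4.6 and scipy 1.17.1.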

Additional observations from a re-analysis of the deposited data

Results flagged for a closer look

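For 3 carriers both differentiated BAT libraries lay below BAT on day 0 while both differentiated WAT libraries lay above WAT on day 0, by sign alone. The change in BAT minus that in WAT was -3.80 for *Slc25a30*, -1.55 for *Slc25a36* and -1.20 for *Slc25a38* on the log2 scale. The test of this difference by limma did not pass for any of them (adjusted p = 0.156, 0.253 and 0.186). *Slc25a36* stood at 36.9, 30.7 and 16.2 FPKM in BAT (days 0, 4 and 6) and at 9.27, 15.6 and 19.6 FPKM in WAT, and *Slc25a38* at 17.9, 11.2 and 9.60 FPKM and at 8.32, 11.5 and 12.1 FPKM. With the trend in transcript length removed, *Slc25a36* no longer had this pattern, since BAT on day 4 lay 0.16 above BAT on day 0. BAT and WAT moved opposite ways, in either direction, in 7.89% of the members and in 18.5% of all genes tested.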

How the results depend on the processing

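No paired analysis was possible because the only replicate number in the labels is 1. Libraries were matched by day or by cell type only through the terms of the additive fit. The 18 rises of days 4 and 6 against day 0 became 3 to 18 with one library left out, and every call kept its sign in every setting. The 1 fall became 0 to 4 with one library left out, 2 with a pseudocount of 0.1, median-ratio scaling, summed entries, the length trend removed or protein-coding genes only, and 0 with a pseudocount of 5, no filter or TPM scaling. Rises numbered 13 to 19 over these other settings. BAT against WAT gave 0 called members in every setting, and so did the difference in change, which could not be fitted without BAT or WAT on day 0.

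Of the counts by the 2-fold rule, those higher than day 0 stayed within 1.5 times, and libraries were not left out. With a pseudocount of 0.1, falls in WAT were 5 on day 4 and 3 on day 6, and BAT against WAT gave 4 lower on day 0, 3 higher and 2 lower on day 4, and 3 lower on day 6. With a pseudocount of 5, falls on days 4 and 6 were 3 and 3 (BAT) and 0 and 0 (WAT), and BAT against WAT on day 0 gave 3 higher and 1 lower. With a mean of at least 5 FPKM, falls were 1 and 3 (BAT) and 1 and 0 (WAT), with 4 higher in BAT on day 0. Median-ratio scaling gave 3 (BAT) and 2 (WAT) falls on day 6, 4 lower on day 0 and 2 lower on day 4. TPM gave 8 and 12 falls in BAT, 15 higher and 0 lower on day 0, 4 higher on day 4 and 1 lower on day 6. Removing the length trend gave 4 (BAT) and 2 (WAT) falls on day 6 and 0 lower on day 0. The cause was not tested.

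Without replicates of a condition, neither culture nor preparation can be told apart from cell type or day. WAT on day 0 had the lowest estimated depth, and values under 1 FPKM rest on few fragments. BAT on day 0 had the lowest FPKM sum (525714, against 740823 to 842757 in the others). Of the library pairs compared, those with BAT on day 0 had the largest coefficients with transcript length in size, and the cause was not tested.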
